A study of Mus musculus with 9 samples.

Results

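Immature thymocyte genes, 10 in all, were read across 9 whole mouse aortae: Rag1, Rag2, Dntt, Ptcra, Cd8a, Cd8b1, Cd4, Themis, Arpp21 and Tcf7. They were chosen by symbol, and they are 10 of the 55453 genes in the count table. All 10 passed the filter on low counts, among 19412 genes tested. The study made an Itga8-CreERT2 mouse, in which a tamoxifen-activated Cre recombinase is driven from the smooth muscle integrin gene Itga8, and set it beside the older Myh11-CreERT2 smooth muscle driver. RNA was taken from flash-frozen aortae of 3 mice labelled Itga8-Cre, 3 labelled Myh11-Cre and 3 labelled Wild Type, all of strain C57BL/6J, and poly(A) RNA was sequenced. The labels name Cre, not a floxed allele, and they give no age, sex, tamoxifen dose or batch for any group. Each library is a whole aorta with whatever tissue stayed on it, so it is a mixture of cell types and not smooth muscle alone. Levels below are CPM, which are read counts scaled by library size, with sizes adjusted by the trimmed mean of M values (TMM).

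Thymocytes are T cell precursors that mature in the thymus. In them the recombinase made of Rag1 and Rag2 cuts DNA beside the gene segments of the T cell receptor, Dntt adds bases at the joins, and the product of Ptcra pairs with the first receptor chain to be completed. Cells at the next stage carry both the CD4 and the CD8 coreceptor, join their second receptor chain and are selected on thymic epithelium. The recombinase genes are then switched off, while mature T cells keep Cd4 or Cd8, and naive ones keep Tcf7. Rag1, Rag2 and Dntt are also used by B cell precursors in bone marrow.

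The promoters of the recombinase genes and of the genes for the end-adding enzyme and the pre-T cell receptor chain are shown. These 4 genes, with Arpp21, had the widest ranges of log2 CPM over the libraries among the 10, although Ptcra rested on few counts. Each sequence is the 250 bases before the RefSeq start on build GRCm38.p6, written 5′ to 3′ on the strand of the gene. Rag1 lies at chr2:101649533-101649782 on the minus strand, Rag2 at chr2:101624462-101624711 on the plus strand, Dntt at chr19:41029025-41029274 on the plus strand and Ptcra at chr17:46763713-46763962 on the minus strand. Capitals mark matches to the letters searched on both strands.
Rag1: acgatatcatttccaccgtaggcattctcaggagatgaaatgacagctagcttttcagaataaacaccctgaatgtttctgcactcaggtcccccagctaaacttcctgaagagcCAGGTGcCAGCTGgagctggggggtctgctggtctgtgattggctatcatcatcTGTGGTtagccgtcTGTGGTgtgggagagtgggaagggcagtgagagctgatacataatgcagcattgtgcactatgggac
Rag2: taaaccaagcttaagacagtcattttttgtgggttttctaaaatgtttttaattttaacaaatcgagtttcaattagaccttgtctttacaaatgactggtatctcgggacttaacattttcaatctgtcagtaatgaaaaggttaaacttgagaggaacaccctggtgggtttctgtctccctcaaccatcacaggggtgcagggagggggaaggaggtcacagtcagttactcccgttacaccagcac
Dntt: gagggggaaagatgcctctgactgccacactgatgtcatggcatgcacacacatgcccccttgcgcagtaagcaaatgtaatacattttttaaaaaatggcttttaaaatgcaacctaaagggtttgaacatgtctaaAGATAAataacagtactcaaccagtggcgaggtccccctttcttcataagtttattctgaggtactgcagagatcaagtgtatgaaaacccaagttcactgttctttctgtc
Ptcra: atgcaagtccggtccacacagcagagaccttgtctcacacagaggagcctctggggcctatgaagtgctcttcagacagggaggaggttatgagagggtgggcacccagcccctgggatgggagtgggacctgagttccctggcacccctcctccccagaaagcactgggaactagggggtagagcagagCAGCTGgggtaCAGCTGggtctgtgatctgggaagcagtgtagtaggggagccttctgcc

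The letters searched were the E-box motifs CAGCTG and CAGGTG, which basic helix-loop-helix proteins such as the thymocyte E proteins can bind, the TCF1/LEF1 core CTTTGA, the Runx core TGTGGT and the GATA core AGATAA. Counting back from the start, the Rag1 window held CAGGTG at -135 to -130, CAGCTG at -128 to -123 and TGTGGT at -81 to -76 and -67 to -62. The Ptcra window held CAGCTG at -60 to -55 and at -49 to -44. The Dntt window held AGATAA at -112 to -107, and the Rag2 window held none of these letters. These matches do not overlap. Of 32817 promoter windows of the same length, 13.0% held CAGCTG, 17.2% CAGGTG, 13.8% CTTTGA, 14.0% TGTGGT and 9.99% AGATAA. A match is a description of the letters and not a binding site. The RefSeq table held 8 of the 10 genes, and the 4 shown are among the 5 with a single start. The Rag2 window overlaps B230118H07Rik, and the Ptcra window overlaps the long noncoding RNA gene Gm26904, both annotated on the other strand.

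Rag1 and Rag2 are neighbours on chromosome 2. In the GENCODE M21 annotation, Rag1 (ENSMUSG00000061311.6) spans chr2:101638282-101649501 on the minus strand and Rag2 (ENSMUSG00000032864.4) spans chr2:101624718-101632529 on the plus strand. The gene B230118H07Rik shares 80 exon bases with Rag1 on the same strand and 208 with Rag2 on the opposite strand. It measured 15.6 to 23.5 CPM in all 9 libraries. The libraries were made with a strand-marking kit, but the strand setting of the counting step is not known here. Some reads therefore cannot be assigned with certainty, and their share was not measured.

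Before the results, 2 libraries have to be set apart. Itga8-Cre 1 and Itga8-Cre 2 held 22 and 16 Rag1 counts, against 613 to 16164 in the other 7 libraries. Total counts were 31419238 to 42497543 per library, so 3 counts, the limit that a count of 0 allows, correspond to 0.0729 to 0.0885 CPM. Such limits cover counting error only. The targeted gene Itga8 measured 54.1, 76.5 and 62.9 CPM in the Itga8-Cre aortae, against 475, 147 and 196 CPM in the Wild Type aortae, a log2 difference of -2.08 (SE 0.59, n = 3 each) with an adjusted p of 0.699 in edgeR and 0.0482 in DESeq2. Each Itga8-Cre value was lower than every Wild Type value, although Myh11-Cre 1, at 72.4 CPM, lay among the Itga8-Cre values. Myh11, a smooth muscle myosin gene and the other driver, measured 460, 1050 and 1110 CPM in the Myh11-Cre aortae, against 1370, 1080 and 986 CPM in the Wild Type aortae. The summed level of 10 aortic smooth muscle markers was 1420 to 1890 CPM in the Itga8-Cre aortae, 1150 to 3390 CPM in the Myh11-Cre aortae and 2190 to 3600 CPM in the Wild Type aortae.

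Rag1, the catalytic subunit of the recombinase, measured 0.629, 0.443 and 477 CPM in the Itga8-Cre aortae 1 to 3. It measured 274, 233 and 44.6 CPM in the Myh11-Cre aortae and 50.7, 130 and 16.0 CPM in the Wild Type aortae. The highest and the lowest library of all 9 were thus both Itga8-Cre, 1080-fold apart, and the other groups lay inside that range. Means were 159 ± 275 CPM in the Itga8-Cre aortae, 184 ± 122 CPM in the Myh11-Cre aortae and 65.7 ± 58.7 CPM in the Wild Type aortae (SD, n = 3 each). Medians were 0.629 CPM in the Itga8-Cre aortae, 233 CPM in the Myh11-Cre aortae and 50.7 CPM in the Wild Type aortae, so for Itga8-Cre the mean and the median lie on opposite sides of Wild Type. In whole tissue, fewer cells of a type and less RNA per cell cannot be told apart.

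Rag2, the recombinase subunit that binds a histone mark of active chromatin, gave 1, 0 and 496 counts in the Itga8-Cre aortae. It gave 337, 325 and 54 counts in the Myh11-Cre aortae and 46, 116 and 12 counts in the Wild Type aortae. Its levels were 0.0286, 0 and 14.6 CPM in the Itga8-Cre aortae, 9.22, 7.9 and 1.41 CPM in the Myh11-Cre aortae and 1.33, 3.07 and 0.312 CPM in the Wild Type aortae. Rag2 put the libraries in nearly the order that Rag1 did, at a far lower level. The highest library was at least 176-fold above the limit of 3 counts in the lowest, Itga8-Cre 2.

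Dntt encodes terminal deoxynucleotidyl transferase and spans chr19:41029275-41059525 on the plus strand. It measured 0.829, 1.69 and 128 CPM in the Itga8-Cre aortae, 77.5, 55.6 and 9.97 CPM in the Myh11-Cre aortae and 11.6, 26.1 and 4.63 CPM in the Wild Type aortae. The range was 155-fold, narrower than that of Rag1, and Dntt was lowest in Itga8-Cre 1 where Rag1 was lowest in Itga8-Cre 2.

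Ptcra, at chr17:46755663-46763712 on the minus strand, was the least abundant of the 10 genes. It gave 1, 0 and 59 counts in the Itga8-Cre aortae, 51, 30 and 6 counts in the Myh11-Cre aortae and 4, 11 and 6 counts in the Wild Type aortae. In CPM these are 0.0286, 0 and 1.74 in the Itga8-Cre aortae, 1.4, 0.729 and 0.156 in the Myh11-Cre aortae and 0.116, 0.291 and 0.156 in the Wild Type aortae. Only Itga8-Cre 3, Myh11-Cre 1 and Myh11-Cre 2 reached 30 counts, and at this depth the remaining libraries are measured coarsely.

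Arpp21 encodes an RNA-binding phosphoprotein best known from brain and also made in thymocytes, and it lies at chr9:112065091-112235938 on the minus strand. It measured 0.429, 0.249 and 65.6 CPM in the Itga8-Cre aortae, 47.2, 40.1 and 18 CPM in the Myh11-Cre aortae and 9.21, 39.1 and 6.27 CPM in the Wild Type aortae. It followed the recombinase genes rather than the coreceptors, with a 263-fold range. Unlike Rag1, it was nearly as high in Wild Type 2 as in Myh11-Cre 2. The noncoding gene 2900079G21Rik shares 580 exon bases with Arpp21 on the opposite strand and measured at most 0.547 CPM.

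**Figure D1:**
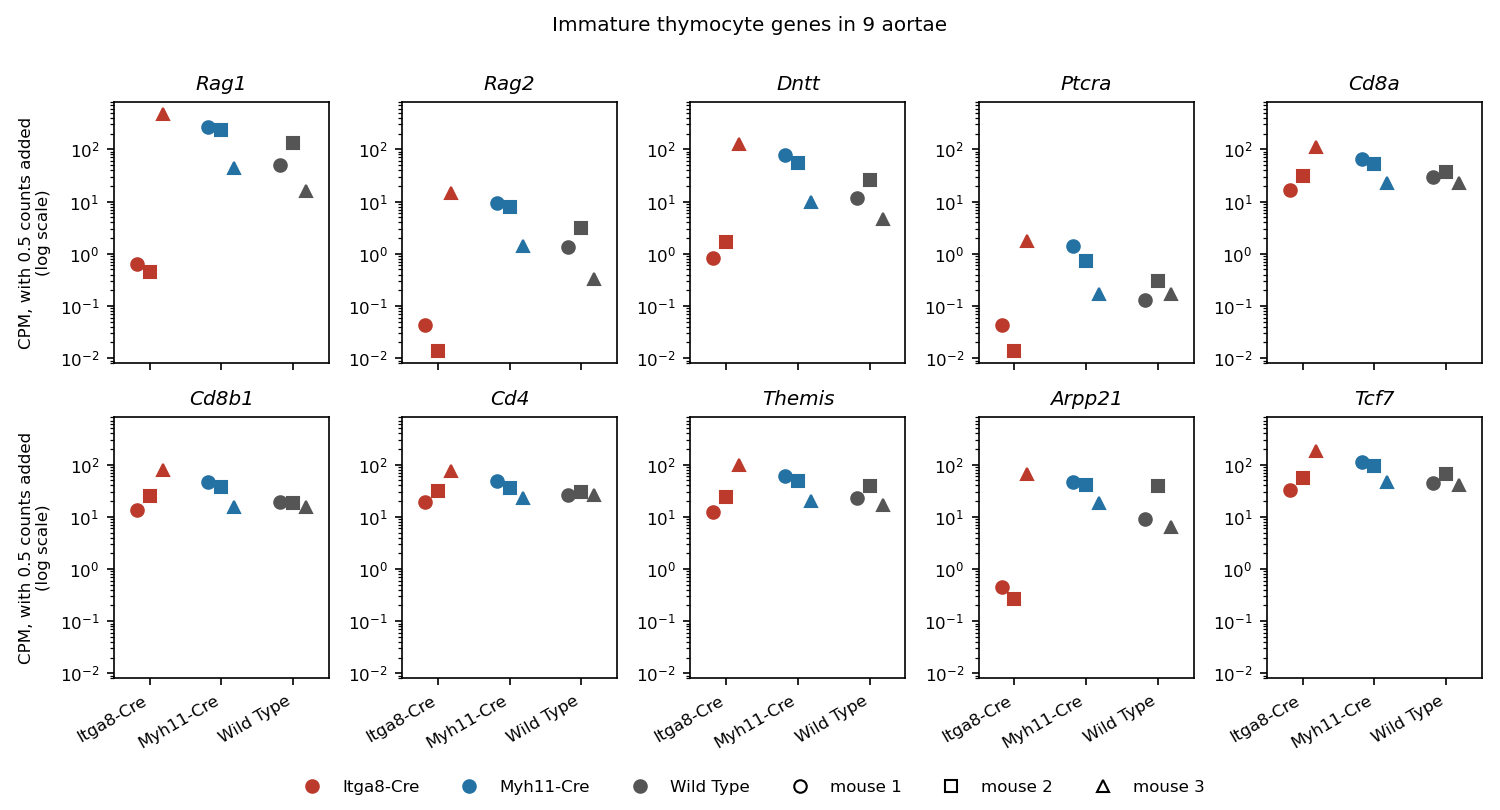
Level of each of the 10 genes in every aorta, in CPM after 0.5 counts were added, on a log axis. Each point is 1 library, its colour the group and its shape the mouse number. Itga8-Cre 3 is the highest point in all 10 panels, and Itga8-Cre 1 and 2 fall below the other 7 libraries for Rag1, Rag2, Dntt, Ptcra and Arpp21 but not for the other 5 genes.

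The coreceptor genes spread far less. Cd8a and Cd8b1 encode the 2 chains of the CD8 coreceptor, which binds class I MHC, and lie near each other at chr6:71373427-71379173 and chr6:71322788-71337494, both on the plus strand. Cd8a measured 16.4, 30.2 and 113 CPM in the Itga8-Cre aortae, 66.7, 52 and 23 CPM in the Myh11-Cre aortae and 29.7, 37.4 and 22.8 CPM in the Wild Type aortae. Cd8b1 measured 13.7, 24.8 and 78.8 CPM in the Itga8-Cre aortae, 46.6, 38 and 15.4 CPM in the Myh11-Cre aortae and 19, 18.8 and 15.1 CPM in the Wild Type aortae. Both were highest in Itga8-Cre 3 and lowest in Itga8-Cre 1, over 6.91-fold and 5.77-fold ranges, and Itga8-Cre 2 lay among the Wild Type values for Cd8a and above them for Cd8b1. The ratio of Cd8b1 to Cd8a counts stayed between 0.502 and 0.834 over the 9 libraries.

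Cd4, whose product binds class II MHC, had the narrowest range of the 10 genes, 4.03-fold. It measured 19.1, 31.7 and 77.1 CPM in the Itga8-Cre aortae, 48.6, 35.8 and 22.6 CPM in the Myh11-Cre aortae and 26, 30.4 and 25.9 CPM in the Wild Type aortae. In mice, CD4 is made by T cells and also by some dendritic cells. The ratio of Cd4 to Cd8a counts was 0.681, 0.729 and 0.688 in Itga8-Cre 3, Myh11-Cre 1 and Myh11-Cre 2, and 0.815 to 1.17 in the other 6 libraries.

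Themis encodes a regulator of T cell receptor signalling needed at thymic selection. It measured 12.2, 23.6 and 97.2 CPM in the Itga8-Cre aortae, 61.4, 47.7 and 20.1 CPM in the Myh11-Cre aortae and 22.7, 39.5 and 16.9 CPM in the Wild Type aortae. Tcf7 encodes TCF1, a transcription factor of early thymocytes and of naive T cells. It measured 33.3, 56.1 and 181 CPM in the Itga8-Cre aortae, 113, 94.9 and 46.9 CPM in the Myh11-Cre aortae and 44.3, 67 and 41.1 CPM in the Wild Type aortae. The 2 genes ranked the upper 5 libraries alike, with Itga8-Cre 3, Myh11-Cre 1, Myh11-Cre 2, Wild Type 2 and Itga8-Cre 2 in that order, and had ranges of 7.94-fold and 5.45-fold.

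All 10 genes thus named the same 3 libraries as highest, in the same order: Itga8-Cre 3, Myh11-Cre 1, then Myh11-Cre 2. The lowest library was Itga8-Cre 1 for 6 genes and Itga8-Cre 2 for the other 4, which were Rag1, Rag2, Ptcra and Arpp21. Within Wild Type, mouse 2 was highest for 9 of the 10 genes, Cd8b1 being the exception. Within Myh11-Cre, mouse 3 was lowest for all 10. The summed level of the 10 genes was 96.7 to 1230 CPM in the Itga8-Cre aortae, 202 to 745 CPM in the Myh11-Cre aortae and 149 to 392 CPM in the Wild Type aortae.

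Spread within groups, pooled over the 3 groups, was large beside that of other genes, and for all 10 genes it was largest in Itga8-Cre. The SD of log2 CPM within groups was 3.48 for Rag1, 3.37 for Rag2, 2.7 for Arpp21 and 2.55 for Dntt, and the median over genes with a mean of at least 1 CPM was 0.23. Among those 15418 genes, Rag1 ranked 20, Rag2 24, Arpp21 69 and Dntt 81 from the most variable. Themis had an SD of 1.07, Cd8a 0.97, Cd8b1 0.90, Tcf7 0.85 and Cd4 0.67, with ranks of 504 to 1339. Ptcra, at 2.32, was under the 1 CPM mean and was not ranked.

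Levels can be compared between genes only per length. Averaged over the 9 libraries, CPM per kilobase of annotated exon was 28.7 for Tcf7, 20.6 for Rag1, 20.2 for Cd8b1, 15.3 for Dntt and 12 for Cd8a. It was 8.74 for Cd4, 3.25 for Themis, 1.44 for Arpp21, 1.23 for Rag2 and 0.399 for Ptcra. Exons of all isoforms were merged, which lowers the values of Arpp21, with 17.43 kb of exon, and Themis, with 11.68 kb. Neighbours in this order differ by less than the range of either gene over the libraries. In Itga8-Cre 3 alone, Rag1 reached 72.1 and Tcf7 69.1 CPM per kilobase, whereas in Itga8-Cre 1 Rag1 stood at 0.0952.

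Itga8-Cre aortae were compared with Wild Type aortae in one edgeR quasi-likelihood fit over all 9 libraries, and p-values were adjusted by Benjamini-Hochberg over all 19412 tested genes. None of the 10 genes passed an adjusted p of 0.05, where 0% of all tested genes did. The fitted log2 fold changes were above 0 for all 10, with a median of 0.99 beside 0.04 over all genes tested. They were 1.28 for Rag1 (SE 1.95), 1.63 for Rag2 (SE 1.76), 1.62 for Dntt (SE 1.59), 1.62 for Ptcra (SE 1.47) and 0.28 for Arpp21 (SE 1.56). They were 0.83 for Cd8a (SE 0.66), 1.15 for Cd8b1 (SE 0.62), 0.63 for Cd4 (SE 0.47), 0.75 for Themis (SE 0.73) and 0.83 for Tcf7 (SE 0.59). The smallest adjusted p of the 10 in edgeR was 0.699, for Cd8b1. The groups overlapped for all 10 genes, where 11.1% of tested genes had groups that did not overlap.

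That direction rested on 1 library. Without Itga8-Cre 3, the log2 fold changes of 9 of the 10 genes were below 0, with a median of -2.02 and a value of -6.94 for Rag1. Cd8b1 alone stayed above 0, at 0.12. No gene of the 10 passed the test in that fit, where the smallest adjusted p in edgeR was 0.999. With limma voom, which averages on the log scale, 5 of the 10 were below 0, Rag1 at -3.26 among them, and the median was -0.33. Without Wild Type 1 or Wild Type 3, only Arpp21 changed sign, at -0.05 and -0.13.

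Myh11-Cre aortae were set against the same 3 Wild Type aortae, so the 2 comparisons share their controls. None of the 10 genes passed the edgeR test, as for 0% of all genes, and the smallest adjusted p of the 10 was 0.464, for Cd8b1. All 10 log2 fold changes were again above 0, with a median of 0.93 beside 0.01 over all genes. They were 1.48 for Rag1 (SE 1.96), 1.97 for Rag2 (SE 1.77), 1.76 for Dntt (SE 1.59), 1.99 for Ptcra (SE 1.45) and 0.95 for Arpp21 (SE 1.57). They were 0.66 for Cd8a (SE 0.66), 0.92 for Cd8b1 (SE 0.61), 0.38 for Cd4 (SE 0.47), 0.71 for Themis (SE 0.73) and 0.74 for Tcf7 (SE 0.59). Leaving out any 1 Myh11-Cre or Wild Type library kept all 10 above 0, and the median then ranged over 0.64 to 1.66. Leaving out an Itga8-Cre library could hardly move these values, because that group is not in this comparison. Without Itga8-Cre 3 they were 0.38 to 1.99, the same as with all 9 libraries. The groups overlapped for all 10 genes, because Myh11-Cre 3 lay below at least 1 Wild Type library each time, and 26% of tested genes had groups that did not overlap.

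Itga8-Cre against Myh11-Cre aortae gave 5 of the 10 genes above 0 and 5 below, with a median log2 fold change of -0.04 beside 0.01 over all genes. None passed the edgeR test, as for 0% of all genes, and the groups overlapped for all 10, where 12.7% of tested genes had groups that did not. The 5 below 0 were the precursor genes Rag1 at -0.21 (SE 1.92), Rag2 at -0.34 (SE 1.69), Dntt at -0.13 (SE 1.54), Ptcra at -0.37 (SE 1.33) and Arpp21 at -0.67 (SE 1.56). Cd8a stood at 0.17 (SE 0.66), Cd8b1 at 0.23 (SE 0.61), Cd4 at 0.26 (SE 0.47), Themis at 0.04 (SE 0.73) and Tcf7 at 0.09 (SE 0.59). Without Itga8-Cre 3, all 10 lay below 0, with a median of -3.27 and a value of -8.43 for Rag1. The division also shifted the other way: without Itga8-Cre 1, Itga8-Cre 2 or Myh11-Cre 1, 9 of the 10 lay above 0, with medians of 0.46, 0.40 and 0.39. Without Myh11-Cre 3, 9 lay below 0, with a median of -0.46.

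**Figure D2:**
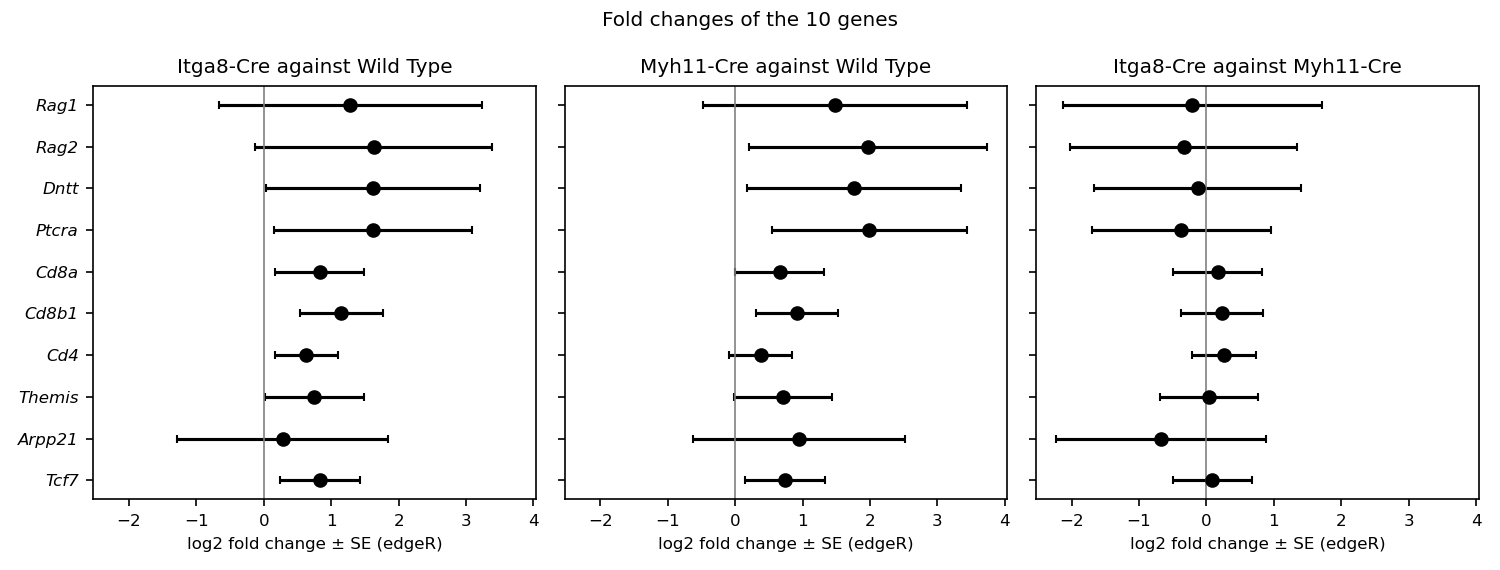
Fitted log2 fold change of each gene with its standard error from edgeR, in 1 panel per comparison. All 10 points lie above 0 in Itga8-Cre against Wild Type and in Myh11-Cre against Wild Type, where the bars of the first 4 genes are the longest together with Arpp21, and the points straddle 0 in Itga8-Cre against Myh11-Cre.

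Across all genes, edgeR called 0 in each comparison. Unadjusted p-values under 0.05 were held by 1316 genes for Itga8-Cre against Wild Type, 3187 for Myh11-Cre against Wild Type and 1840 for Itga8-Cre against Myh11-Cre, and by none of the 10 genes in any of them. In the same order of comparisons, limma voom also called 0 each time and DESeq2 called 30, 828 and 19 genes, none of them among the 10.

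**Figure D3:**
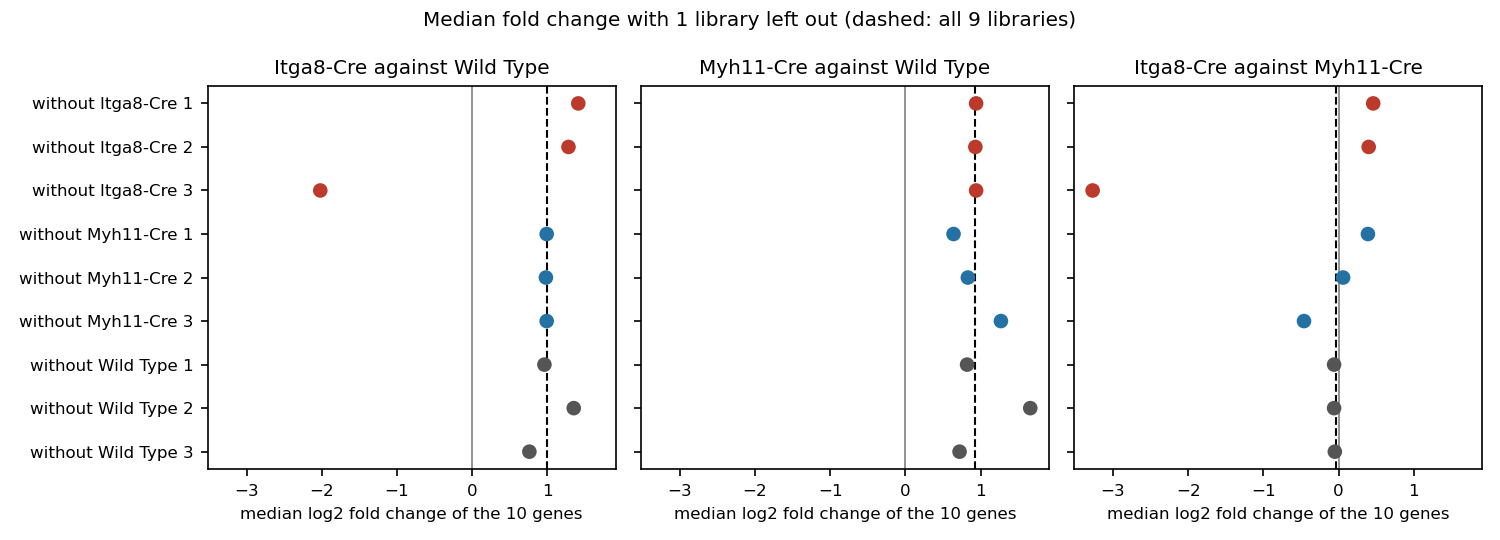
Median log2 fold change of the 10 genes when 1 library is left out, with 1 row per library left out, coloured by its group. The dashed line is the value with all 9 libraries, at 0.99, 0.93 and -0.04. Leaving out Itga8-Cre 3 moves the median to -2.02 against Wild Type and to -3.27 against Myh11-Cre, and no other single library moves either median as far.

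To set the recombinase gene against T cells of any stage, Rag1 counts were divided by those of Cd3e, a chain of the T cell receptor complex. The ratio was 0.0595, 0.0264 and 17.1 in the Itga8-Cre aortae, 15.0, 17.1 and 4.53 in the Myh11-Cre aortae and 3.62, 8.97 and 1.32 in the Wild Type aortae. Cd3e itself measured 10.6, 16.8 and 27.8 CPM in the Itga8-Cre aortae, 18.2, 13.6 and 9.84 CPM in the Myh11-Cre aortae and 14, 14.5 and 12 CPM in the Wild Type aortae, so Itga8-Cre 1 and 2 lay just below and just above the Wild Type values of Cd3e while holding almost no Rag1. On the log2 scale, with 0.5 counts added, the ratio averaged -1.72 ± 5.07 in the Itga8-Cre aortae, 3.39 ± 1.06 in the Myh11-Cre aortae and 1.81 ± 1.38 in the Wild Type aortae (SD, n = 3 each). Itga8-Cre minus Wild Type was -3.52 (exact two-sided permutation p = 0.4), Myh11-Cre minus Wild Type was 1.59 (exact p = 0.2) and Itga8-Cre minus Myh11-Cre was -5.11 (exact p = 0.4). These are 3 comparisons of 3 against 3 mice, which cannot give an exact p under 0.1. With 1 library left out, Itga8-Cre minus Wild Type ranged over -6.43 (without Itga8-Cre 3) to -1.78 (without Itga8-Cre 2), and Myh11-Cre minus Wild Type over 0.88 (without Wild Type 3) to 2.26 (without Wild Type 2). Itga8-Cre minus Myh11-Cre ranged over -8.02 (without Itga8-Cre 3) to -3.37 (without Itga8-Cre 2). The sign of each stayed the same. The difference between Itga8-Cre and Wild Type is below 0 where the fitted fold change of Rag1 is above 0, since one averages logs and the other fits mean counts.

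The other ratios below were chosen after their values were seen and are descriptions. In the 7 libraries with at least 100 Rag1 counts, the ratio to Rag1 spanned 1.73-fold for Rag2 and 1.45-fold for Dntt, against 2.93-fold for Arpp21 and 4.39-fold for Ptcra. Rag2 counts were 1.96% to 3.4% of Rag1 counts and Dntt counts 20% to 29%, while Rag1 itself ranged over 16.0 to 477 CPM. Arpp21 was 13.8% to 40.4% of Rag1, highest in Myh11-Cre 3, Wild Type 3 and Wild Type 2, and Ptcra was 0.223% to 0.979%. In Itga8-Cre 1 and 2 Dntt outnumbered Rag1, at ratios of 1.32 and 3.81. In Itga8-Cre 1 this was 29 against 22 counts, within counting error, with limits of 0.555 to 1.19 CPM for Dntt and 0.394 to 0.952 CPM for Rag1. The ratio of Arpp21 to Rag1 was also higher in these 2 libraries than in the 7, at 0.682 and 0.562, on 15 and 9 Arpp21 counts.

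**Figure D4:**
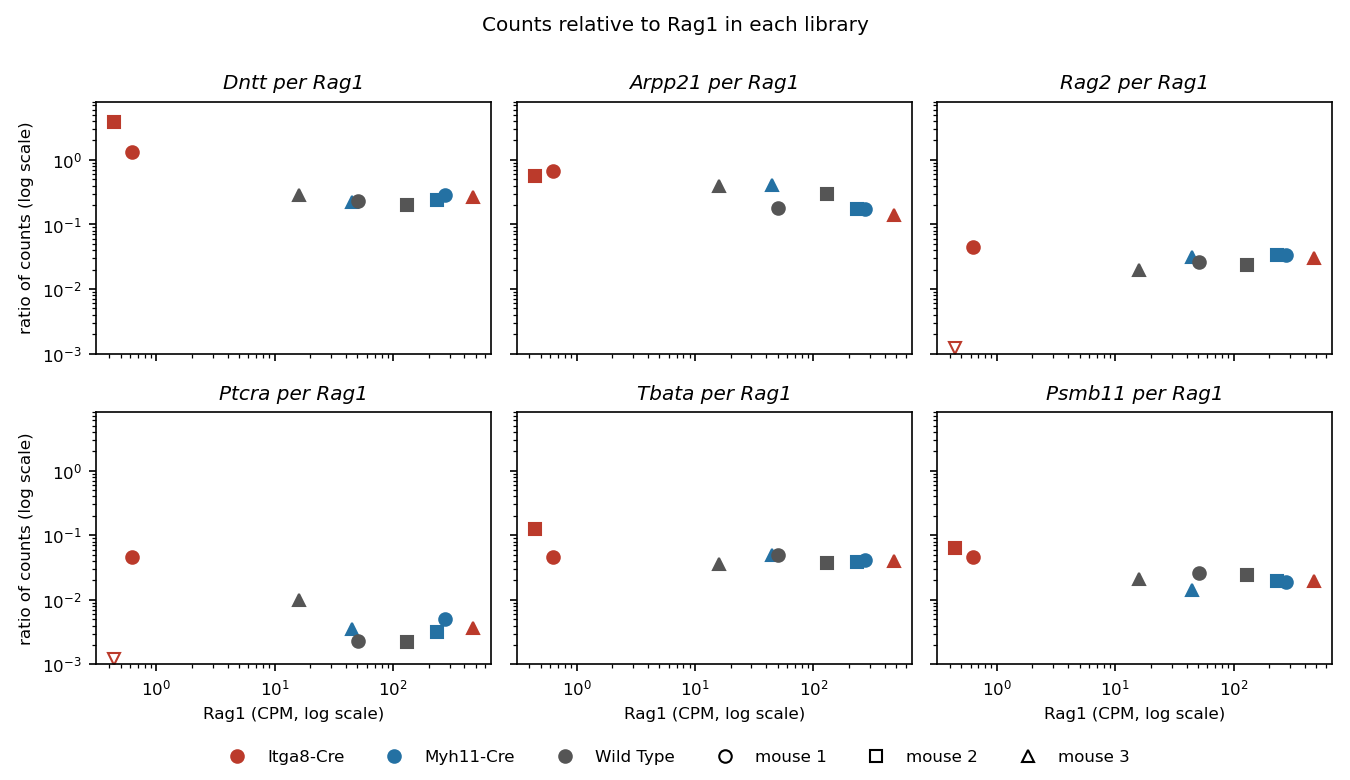
Counts of 6 genes divided by Rag1 counts in each library, against the Rag1 level in CPM, both on log axes. Points are libraries, coloured by group and shaped by mouse number, and an open downward triangle at the floor of the panel marks a count of 0. Across the 7 libraries with 16.0 CPM of Rag1 or more, the Dntt and Tbata ratios stay within 1.45-fold and 1.38-fold. The Dntt and Arpp21 ratios are higher in Itga8-Cre 1 and 2, where all counts are low.

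The coreceptor genes, Themis and Tcf7 did not keep a steady ratio to Rag1, with SDs of the log2 ratio of 2.98 to 3.33 over the 9 libraries. Over all 9 libraries the ratio to Cd3e counts was 1.55 to 4.06 for Cd8a, 1.81 to 2.77 for Cd4, 1.16 to 3.51 for Themis and 3.15 to 6.98 for Tcf7. Cd8a per Cd3e was 4.06, 3.66 and 3.83 in Itga8-Cre 3, Myh11-Cre 1 and Myh11-Cre 2, and 1.55 to 2.57 in the other 6 libraries. Themis per Cd3e was 3.49, 3.37 and 3.51 in the same 3 libraries, and 1.16 to 2.71 in the others. The ratio of Ccr7, a homing receptor of naive and mature T cells, to Cd3e ran otherwise, with 0.852, 0.663 and 0.716 in those 3 libraries and 0.709 in Wild Type 2, against 1.51 to 1.96 in the other 5.

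Genes outside the 10 that followed them most closely were ranked by the SD over 9 libraries of the log2 ratio to the mean of the 10. The 12 closest with a mean of at least 1 CPM were H2-Q2 at 0.38, Spo11 at 0.41, Dgkeos at 0.48, Endou at 0.59, Myb at 0.64, Pax1 at 0.66, Aqp11 at 0.69, Ccr9 at 0.70, Nwd1 at 0.74, Tdrd5 at 0.79, Syt13 at 0.82 and Cdca7 at 0.88. Each was highest in Itga8-Cre 3. Myb encodes a transcription factor of blood cell precursors and measured 3.95 to 60 CPM, and Ccr9 encodes a chemokine receptor of thymocytes and measured 3.95 to 58.4 CPM. Spo11 encodes the enzyme that cuts DNA in meiosis and measured 0.429 to 8.44 CPM. Pax1, a transcription factor gene of thymic epithelium and the embryonic skeleton, measured 0.194 to 4.01 CPM. By the same measure the members themselves stood at 0.71 for Ptcra and 0.73 for Dntt, up to 1.97 for Rag1.

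Genes of the wider pathway followed only in part. None of 26 other thymocyte differentiation genes passed the edgeR test in any comparison, and 24 of 26 log2 fold changes were above 0 for Itga8-Cre against Wild Type, 15 for Myh11-Cre against Wild Type and 18 for Itga8-Cre against Myh11-Cre. Their medians were 0.47, 0.03 and 0.34 in those 3 comparisons. Satb1, a chromatin organiser of thymocytes, measured 51.7, 85.2 and 297 CPM in the Itga8-Cre aortae, 185, 165 and 89.8 CPM in the Myh11-Cre aortae and 78.6, 160 and 67.2 CPM in the Wild Type aortae. Notch1, the receptor that starts T cell development and is also made by endothelium, stayed at 95.5 to 119 CPM. Ets1, a transcription factor gene of lymphocytes and vessels, measured 159 to 295 CPM.

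The receptor complex and its proximal signalling genes, 13 in the list, summed to 215 to 637 CPM in the Itga8-Cre aortae, 222 to 388 CPM in the Myh11-Cre aortae and 234 to 248 CPM in the Wild Type aortae. None passed the edgeR test, and 13, 11 and 13 of the 13 log2 fold changes were above 0 in Itga8-Cre against Wild Type, Myh11-Cre against Wild Type and Itga8-Cre against Myh11-Cre. Trbc2, a constant region of the first receptor chain, measured 24.2, 40.3 and 120 CPM in the Itga8-Cre aortae, 70.1, 54.2 and 26.9 CPM in the Myh11-Cre aortae and 28, 28.9 and 23.7 CPM in the Wild Type aortae. Lck, the kinase bound to the coreceptors, measured 24, 45.1 and 103 CPM in the Itga8-Cre aortae, 55, 44.3 and 27.9 CPM in the Myh11-Cre aortae and 28.8, 36.2 and 29.4 CPM in the Wild Type aortae. Both had the same 3 highest libraries in CPM as the 10 genes, except that Lck in Itga8-Cre 2 was slightly above Myh11-Cre 2. Trac, the constant region of the second receptor chain, had its lowest value in Wild Type 2, at 12.1 CPM, and its ratio to Cd3e was lowest there too, at 0.835.

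The end joining machinery that seals the cut DNA ends works in every cell type. Its 12 genes summed to 315 to 418 CPM in the Itga8-Cre aortae, 319 to 404 CPM in the Myh11-Cre aortae and 310 to 337 CPM in the Wild Type aortae, with median log2 fold changes of 0.20, 0.25 and -0.05 in the 3 comparisons and no gene called by edgeR. The DNA-dependent kinase gene Prkdc measured 49.5 to 62.4 CPM and Atm 44.1 to 62.2 CPM over the 9 libraries. Hmgb2, Lig4 and Hmgb1 had the same 3 highest libraries as the 10 thymocyte genes, and no other gene of the list did. Xrcc6, for example, was highest in Myh11-Cre 1, Wild Type 2 and Itga8-Cre 1, at 106, 88.7 and 81.1 CPM. Polm was highest in Itga8-Cre 2, at 9.63 CPM. Hmgb2, Lig4 and Polm were named after their values were seen. Hmgb2, a chromatin protein gene that is also high in dividing cells, measured 42.5, 27.6 and 19 CPM in Itga8-Cre 3, Myh11-Cre 1 and Myh11-Cre 2, and 8 to 16.2 CPM in the other 6. Lig4, the ligase gene of the pathway, measured 17.1, 16 and 12.6 CPM in those 3 libraries, and 7.66 to 10.6 CPM in the other 6. Hmgb1 measured 97.2, 94.7 and 84.4 CPM in those 3, and 63 to 75.3 CPM in the other 6.

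Some markers of thymic epithelium, but not all, were high in the same libraries as the 10 genes. The 12 thymic epithelial markers summed to 39.9 to 235 CPM in the Itga8-Cre aortae, 70.6 to 190 CPM in the Myh11-Cre aortae and 47.1 to 72.6 CPM in the Wild Type aortae, lowest in Itga8-Cre 1 and highest in Itga8-Cre 3. The sum does not measure thymic epithelium alone. In Itga8-Cre 2 it was 75.3 CPM, of which Ly75 gave 26.7 CPM and Cd83 35 CPM, genes that are not particular to epithelium. In Myh11-Cre 2 it was 190 CPM, of which Krt5 gave 59.8 CPM and Krt8 26.2 CPM. Of the 12 markers, 11 were tested and none passed the edgeR test, with median log2 fold changes of 1.27, 1.43 and -0.07 in the 3 comparisons. DESeq2 called 2 of them for Myh11-Cre against Wild Type, the epithelial genes Krt5 (log2 fold change 6.68, adjusted p 0.00269) and Epcam (2.64, adjusted p 0.0216). Foxn1, the master transcription factor gene of thymic epithelium, measured 0, 0 and 1.27 CPM in the Itga8-Cre aortae, 0.766, 0.535 and 0.026 CPM in the Myh11-Cre aortae and 0.0579, 0.397 and 0.026 CPM in the Wild Type aortae. The 2 libraries that nearly lacked Rag1 had 0 counts of Foxn1, which allows up to 0.0858 CPM in Itga8-Cre 1 and 0.083 CPM in Itga8-Cre 2. Myh11-Cre 3, Wild Type 1 and Wild Type 3 had 1, 2 and 1 counts, so Foxn1 does not set those 2 libraries apart from them.

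Psmb11, a proteasome subunit gene of cortical thymic epithelium, measured 0.0286, 0.0277 and 9.41 CPM in the Itga8-Cre aortae, 5.2, 4.5 and 0.625 CPM in the Myh11-Cre aortae and 1.33, 3.17 and 0.338 CPM in the Wild Type aortae. Prss16, a thymus-specific protease gene, measured 0.172, 0.387 and 62.5 CPM in the Itga8-Cre aortae, 31, 28.2 and 0.625 CPM in the Myh11-Cre aortae and 6.98, 14.9 and 0.39 CPM in the Wild Type aortae. Tbata measured 0.0286, 0.0553 and 19 CPM in the Itga8-Cre aortae, 11.3, 8.92 and 2.21 CPM in the Myh11-Cre aortae and 2.52, 4.84 and 0.573 CPM in the Wild Type aortae. Tbata counts were 3.59% to 4.97% of Rag1 counts and Psmb11 counts 1.4% to 2.63% in the 7 libraries with at least 100 Rag1 counts. Prss16 was less constant, at 1.4% to 13.8%, lowest in Myh11-Cre 3. Other markers of the list did not follow Rag1. Cd83, which B cells and dendritic cells also make, was highest in Itga8-Cre 2, at 35 CPM, and lowest in Wild Type 2, at 10.5 CPM. Krt5 measured 0.0858, 1.63 and 7.64 CPM in the Itga8-Cre aortae, 1.37, 59.8 and 7.5 CPM in the Myh11-Cre aortae and 0.261, 0.264 and 0.156 CPM in the Wild Type aortae. Epcam measured 5.21 CPM in Myh11-Cre 3 and 1.89 CPM in Myh11-Cre 1, and Aire, the regulator of self-antigen genes in medullary epithelium, stayed at 0.356 to 1.03 CPM with its lowest value in Myh11-Cre 1. By a ranking added after the values were seen, Tbata and Psmb11 were the 2 non-members closest to Rag1, with SDs of the log2 ratio of 0.66 and 0.89, beside 0.48 for Rag2. The part of thymic epithelial and other marker-bearing tissue in the group values of the 10 genes was not tested.

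Proliferation markers had the same 3 highest libraries but did not otherwise follow Rag1. The 12 genes summed to 121 to 497 CPM in the Itga8-Cre aortae, 115 to 386 CPM in the Myh11-Cre aortae and 133 to 166 CPM in the Wild Type aortae. Mki67 measured 39.5, 62.9 and 174 CPM in the Itga8-Cre aortae, 145, 85.3 and 34.5 CPM in the Myh11-Cre aortae and 42.1, 62 and 57.7 CPM in the Wild Type aortae, and Itga8-Cre 3 was highest. The summed level in Itga8-Cre 2, which nearly lacked Rag1, was 182 CPM, above the sum in each Wild Type library, and the lowest sum, 115 CPM, was in Myh11-Cre 3. None of the 12 passed the edgeR test, and their median log2 fold changes were 0.84, 0.74 and 0.12 in the 3 comparisons.

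Mature T cell and B cell markers had other libraries as their highest and lowest. The 12 mature and peripheral T cell markers summed to 304 to 420 CPM in the Itga8-Cre aortae, 250 to 309 CPM in the Myh11-Cre aortae and 218 to 314 CPM in the Wild Type aortae, with the highest sum in Itga8-Cre 2 and the lowest in Wild Type 2. Much of this sum came from S1pr1, at 79.7 to 105 CPM, Cd44, at 30.1 to 73.8 CPM, and Klf2, at 28.2 to 50 CPM. These genes are not particular to T cells, so the sum does not measure mature T cells alone. The 12 B cell markers summed to 489 to 895 CPM in the Itga8-Cre aortae, 362 to 1480 CPM in the Myh11-Cre aortae and 328 to 541 CPM in the Wild Type aortae. The surrogate light chain genes of B cell precursors were near 0, with Vpreb2 at 0 counts in all 9 libraries, Igll1 at most at 0.118 CPM and Vpreb1 at most at 0.274 CPM. Neither list had a gene that passed the edgeR test in any comparison. For Itga8-Cre against Wild Type, 10 of 11 tested T cell markers and 8 of 9 tested B cell markers had log2 fold changes above 0, with medians of 0.52 and 0.78. For Myh11-Cre against Wild Type, 3 of 11 and 5 of 9 lay above 0, with medians of -0.27 and 0.03. For Itga8-Cre against Myh11-Cre, 10 of 11 and 7 of 9 lay above 0, with medians of 0.85 and 0.57. Whether these lists differ from the 10 genes was not tested.

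**Figure D5:**
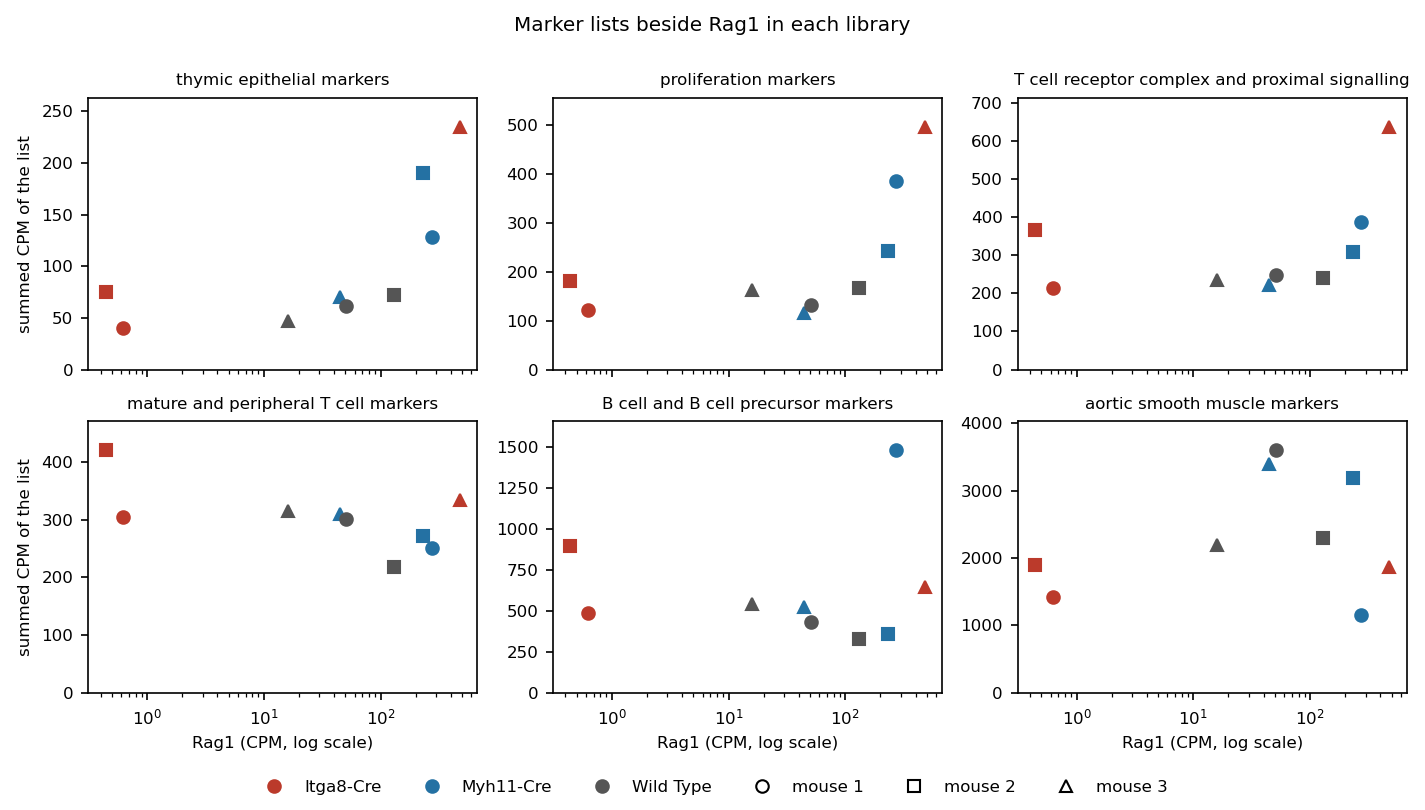
Summed CPM of 6 marker lists in each library, against the Rag1 level on a log axis, with the vertical axis from 0 and scaled per panel. Points are libraries, coloured by group and shaped by mouse number. The sums of the thymic epithelial and proliferation lists are highest in Itga8-Cre 3, at 235 and 497 CPM. The sum of the mature and peripheral T cell list is highest in Itga8-Cre 2, at 420 CPM, where Rag1 is lowest. The lists hold genes that other cell types also make.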

How the data were processed

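Aortic poly(A) RNA of 9 mice was sequenced as single-end reads from a strand-marking library kit, per the labels' protocols. The count table holds the authors' deposited counts per gene. The submitters' processing notes name build GRCm38.p6, featureCounts, Subread 1.6.4, STAR 2.7.0f, Salmon 0.13.1, DESeq2 and fastp 0.20.0, with no role given. The authors' normalized values were not used. Total counts were 31419238 to 42497543 per library. Whether the mice were separate animals throughout rests on the titles, which number them.

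Genes were filtered with filterByExpr, scaled by TMM and tested in edgeR 4.0.16 (R 4.3.3) by the quasi-likelihood test in 1 fit over all 9 libraries, with Benjamini-Hochberg adjustment at 0.05. The standard error is the size of the log2 fold change divided by the root of F. DESeq2 1.42.0, limma 3.58.1 (voom), RLE scaling, no filter, the compared groups alone, leaving out each library and a replicate block were alternatives. CPM use TMM-scaled sizes; log2 CPM add 0.5 counts. Exon lengths, positions and overlaps are from GENCODE M21, promoters from RefSeq.

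The genes, the marker lists and the tests were chosen with earlier results of these data known. Named are all 10 genes, the targeted genes, up to 4 abundant genes per list and the 12 closest genes, leaving out unnamed models and antigen receptor genes. Other genes of the lists, such as Cd3e, Ccr7, Trac, Foxn1, Psmb11, Tbata, Myb, Lig4, Hmgb2, Krt5, Epcam, Aire and the B cell precursor genes, were named after their values were seen. One gene that this rule names is not reported here.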

Additional observations from a re-analysis of the deposited data

How the results depend on the processing

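Across 449 alternative values of single genes, 403 kept their direction and 46 changed sign, and none of the 10 genes passed the test in any. Some of these values could hardly differ from the main fit, so the counts overstate how stable the signs are. Among them are fits without a library of the group not compared. Rag1 in Itga8-Cre against Wild Type, at 1.28, gave 1.28, 1.27 and 1.28 without Myh11-Cre 1, 2 and 3. RLE scaling gave 1.29 and no filter 1.28. DESeq2 called 30 genes for Itga8-Cre against Wild Type, 828 for Myh11-Cre against Wild Type and 19 for Itga8-Cre against Myh11-Cre, and edgeR called 1 gene for Myh11-Cre against Wild Type with no filter and 1 with a replicate block, in each case against 0. The cause was not tested. With 1 library left out, the median log2 fold change of the 10 genes spanned -2.02 to 1.41 for Itga8-Cre against Wild Type and -3.27 to 0.46 for Itga8-Cre against Myh11-Cre. For Itga8-Cre against Wild Type, single genes then spanned -6.94 to 2.26 for Rag1, -6.50 to 2.57 for Rag2, -3.50 to 2.42 for Dntt, -3.47 to 2.23 for Ptcra, -0.38 to 1.26 for Cd8a, -0.12 to 0.99 for Cd4, -0.57 to 1.20 for Themis, -5.75 to 1.51 for Arpp21 and -0.20 to 1.22 for Tcf7. For Itga8-Cre against Myh11-Cre, they spanned -8.43 to 0.42 for Rag1, -8.48 to 0.28 for Rag2, -5.26 to 0.47 for Dntt, -5.46 to 0.39 for Ptcra, -1.04 to 0.60 for Cd8a, -0.81 to 0.64 for Cd8b1, -0.51 to 0.61 for Cd4, -1.28 to 0.49 for Themis and -0.95 to 0.48 for Tcf7. In limma voom, the sign changed for Itga8-Cre against Wild Type in Rag1 (-3.26), Rag2 (-2.47), Dntt (-1.02), Ptcra (-0.94) and Arpp21 (-2.79), and for Itga8-Cre against Myh11-Cre in Cd8a (-0.17), Cd8b1 (-0.01), Themis (-0.36) and Tcf7 (-0.19). The main fits left the numbering of the mice out, although libraries of the same number resembled each other to some degree. The deviations of all 9 same-numbered pairs correlated above 0 (r 0.04 to 0.39), 5 of them over 0.1. Differently numbered pairs ran from -0.34 (Itga8-Cre 1 with Myh11-Cre 2) to 0.25 (Itga8-Cre 3 with Myh11-Cre 2). Of 9 libraries, 7 correlated best with their own number. These values give no ground for ignoring the numbers, and what the libraries of a number share was not tested. With the replicate block, Rag1 (-1.03) and Arpp21 (-1.06) changed sign for Itga8-Cre against Wild Type, and Cd8a (-0.03), Themis (-0.17) and Tcf7 (-0.10) for Itga8-Cre against Myh11-Cre. The paired sign-flip test of the Rag1 to Cd3e ratio gave an exact p of 0.5, 0.25 and 0.5 for Itga8-Cre against Wild Type, Myh11-Cre against Wild Type and Itga8-Cre against Myh11-Cre. All 10 genes stayed above 0 for Myh11-Cre against Wild Type under every alternative run. Depth limits Ptcra and Rag2 most, with 0 or 1 count in Itga8-Cre 1 and 2. With the 2 compared groups only, Ptcra did not pass the filter for Itga8-Cre against Wild Type.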

Other observations

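Further lists that bear on tissue kept with the aorta varied in their own ways. The 8 lymph node stroma and follicle markers summed to 101 to 231 CPM in the Itga8-Cre aortae, 63 to 127 CPM in the Myh11-Cre aortae and 71.1 to 135 CPM in the Wild Type aortae, highest in Itga8-Cre 2. Ccl21a was at 0 in all 9 libraries. The 6 macrophage markers summed to 449 to 925 CPM in the Itga8-Cre aortae, 289 to 866 CPM in the Myh11-Cre aortae and 272 to 395 CPM in the Wild Type aortae. Ighm, the heavy chain gene of IgM, measured 1160 CPM in Myh11-Cre 1 and 97 to 330 CPM in the other 8 libraries. Brown fat markers summed to 2190 to 7210 CPM in the Itga8-Cre aortae, 3230 to 6720 CPM in the Myh11-Cre aortae and 2740 to 3690 CPM in the Wild Type aortae. Skeletal muscle markers summed to 125 to 5380 CPM in the Itga8-Cre aortae, 82.3 to 12200 CPM in the Myh11-Cre aortae and 695 to 1330 CPM in the Wild Type aortae, with the lowest sum in Myh11-Cre 1 and the highest in Myh11-Cre 3. No gene of these 4 lists passed the edgeR test in any comparison.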
